A study of Mus musculus with 3 samples.

Results

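Complex I of the respiratory chain (NADH:ubiquinone oxidoreductase) was described here through 55 nuclear genes, taken as every row of the raw count table whose symbol starts with Nduf together with Ecsit, Acad9, Timmdc1, Tmem126b, Nubpl and Foxred1. They were 55 of the 20937 genes listed. By their known roles, 7 encode core subunits, 29 accessory subunits and 14 assembly factors, and 5 have an Nduf symbol without belonging to these classes. The genes Ndufb1 and Ndufb1-ps were not analysed here. RNA was from the whole incisor enamel organ, the epithelium that forms enamel, of male mice at 4 weeks of age, with 1 library per genotype. The library Stim1 cKO was from an AmelX-iCre+ mouse with both Stim1 alleles floxed (Stim1 fl/fl), Stim1 HT from an AmelX-iCre+ mouse with 1 floxed allele (Stim1 fl/wt), and Stim1 Ctrl from a Cre-negative Stim1 fl/fl mouse, so all 3 mice carried at least 1 floxed allele. Cre is driven from the amelogenin promoter and acts in ameloblasts, so other cells of the dissected tissue keep Stim1.

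Complex I takes electrons from NADH and passes them through a flavin and a chain of iron-sulphur clusters to ubiquinone, while its membrane arm pumps protons used for ATP synthesis. The core subunits carry out this chemistry and are shared with bacteria, with those of the matrix arm encoded in the nucleus and those of the membrane arm in mitochondrial DNA. Accessory subunits surround and stabilise the core, and assembly factors help to build the complex and are not part of the finished enzyme. Maturation-stage ameloblasts are known for abundant mitochondria, and STIM1 is the endoplasmic reticulum calcium sensor of store-operated calcium entry. The question put to these libraries here was whether genes of mitochondrial energy supply differ when Stim1 is deleted. The study itself used them for an exploratory survey of global gene expression.

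Total counts ranged from 20216507 to 28265960 per library, and the 55 genes held 0.353% (Stim1 cKO), 0.493% (Stim1 HT) and 0.352% (Stim1 Ctrl) of the counts (95% Wilson intervals 0.350 to 0.355, 0.490 to 0.496 and 0.349 to 0.354, which cover counting error only). Levels are given as CPM, counts relative to library size with edgeR's TMM scaling between libraries. Stim1 itself was at 72.8 CPM in Stim1 cKO, against 129 CPM (Stim1 HT) and 186 CPM (Stim1 Ctrl). Of the ameloblast markers, all 8 were listed in every library. The summed level of the 19 skeletal muscle markers was 8094 CPM in Stim1 cKO against 33135 CPM and 42528 CPM in Stim1 HT and Stim1 Ctrl, with 17 of 19 below both controls, and that of the 7 photoreceptor markers listed was 1019 CPM against 17.9 CPM and 16.2 CPM, with 7 of 7 above both. The summed ameloblast markers were at 4474 CPM, 31549 CPM and 23275 CPM, in which 4 of 8 were below and 3 above both controls. The connective tissue markers summed to 35284 CPM, 49163 CPM and 76100 CPM, the erythroid markers to 1055 CPM, 2328 CPM and 1699 CPM, and the proliferation markers to 328 CPM, 701 CPM and 872 CPM. No marker listed was at 0, since the table holds only genes with at least 1 count in every library. The libraries thus differed in the RNA of other cell types as well as in genotype, and the part of this in the values below was not tested. In such tissue RNA, fewer cells of a type and less RNA per cell cannot be told apart.

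Promoters of some of these genes are shown first, because sites for the factors NRF1, YY1 and ETS proteins are known from respiratory chain genes. RefSeq promoter windows, from 250 bases before to 50 bases after the start site on GRCm38.p6, were matched for 45 of the 55 genes (47 windows). The central letters of the NRF1 motif, CGCNTGCG, searched on both strands like the others, were in 31.9% of these windows and in 8.21% of all 32851 windows. The YY1 letters AAGATGGCG were in 14.9% against 1.40%, and the ETS letters CCGGAAG in 17.0% against 8.86%. The estrogen-related receptor motif TCAAGGTCA was in 0 of the 47 windows and in 0.423% of all. The motif letters did not overlap one another in the stretches below. Stretches of 150 bases, with 130 bases before the start site and 20 from it, are given for 2 genes that were below both controls in Stim1 cKO (Ndufs3, with ETS letters, and Ndufa8, with NRF1 letters) and for 2 that were not (Ndufs6 and Ndufb4, both with NRF1 letters). Each is on the minus strand and is written 5′ to 3′, with the motif letters in capitals. The stretch of Ndufs3 is chr2:90904702-90904851, that of Ndufa8 chr2:36049319-36049468, that of Ndufs6 chr13:73328463-73328612 and that of Ndufb4 chr16:37654349-37654498.
Ndufs3: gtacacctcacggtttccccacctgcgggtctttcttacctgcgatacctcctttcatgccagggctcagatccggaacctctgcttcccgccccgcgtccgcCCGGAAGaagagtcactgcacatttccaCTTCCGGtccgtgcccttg
Ndufa8: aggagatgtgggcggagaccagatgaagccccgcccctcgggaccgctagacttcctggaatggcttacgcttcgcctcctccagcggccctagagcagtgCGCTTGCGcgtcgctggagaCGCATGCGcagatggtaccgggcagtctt
Ndufs6: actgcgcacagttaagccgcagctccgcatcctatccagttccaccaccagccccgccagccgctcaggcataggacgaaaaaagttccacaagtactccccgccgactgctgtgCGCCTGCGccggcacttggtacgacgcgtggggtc
Ndufb4: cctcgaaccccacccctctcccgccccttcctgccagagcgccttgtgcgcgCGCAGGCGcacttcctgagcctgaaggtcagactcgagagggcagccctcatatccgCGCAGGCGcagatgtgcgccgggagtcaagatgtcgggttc
Ndufs3 holds the ETS letters in both orientations, the second just past the start site, and Ndufa8 and Ndufb4 each hold the NRF1 letters at 2 places of the stretch shown. Of the 13 genes with the NRF1 letters, 6 were below both controls in Stim1 cKO, as were 22 of the 32 matched genes without them. The corresponding counts with the motif were 4 of 7 for YY1 and 6 of 8 for ETS, and without it 24 of 38 and 22 of 37. Of all genes tested, 42.1% were below both controls. These are matches of letters, and no binding was measured.

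Levels per kilobase of median transcript length could be set for 52 of the genes. The core subunits had a median of 119 CPM per kb in Stim1 Ctrl, with a lowest value of 74.9, and the accessory subunits a similar median of 101 CPM per kb with a wider range of 1.98 to 197. Assembly factors were lower, with a median of 13.1 CPM per kb and a highest value of 20.9, that of Acad9. In each of the 3 libraries the highest assembly factor stood below the lowest core subunit, at 25.6 against 39.1 CPM per kb in Stim1 cKO and 24.7 against 58.0 CPM per kb in Stim1 HT. The highest of all in each library was Ndufa4, at 412 (Stim1 cKO), 586 (Stim1 HT) and 328 (Stim1 Ctrl) CPM per kb. Ndufa4 carries the name of a complex I subunit and is now known as a subunit of cytochrome oxidase, complex IV.

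In Stim1 cKO, the 7 core subunits were all below both control libraries, whereas the accessory subunits and the assembly factors were split. Stim1 cKO was below both controls for 33 of the 54 genes tested (61.1%, against 42.1% of the 18702 genes tested). For 30 of the 54 this was beyond the 95% counting interval of each ratio, as it was for 5990 of the 18702. By class, those below both controls were 7 of 7 core subunits, 18 of 29 accessory subunits and 7 of 14 assembly factors. Only 5 of 54 were above both (9.26%, against 43.6% of all genes), and 16 lay between. The median difference of log2(CPM + 1) between Stim1 cKO and the mean of both controls was -0.75 for core subunits, -0.41 for accessory subunits and -0.22 for assembly factors, beside 0.00 for all genes tested. With library size as the only scaling, which moved the median of all genes to 0.22, these were -0.49, -0.15 and 0.010, and 20 members were below both controls (30.3% of all genes). Under each of the 7 scalings tried, TMM included, 7 of 7 core subunits were below both controls, whereas the accessory subunits below both were 19 of 29 with RLE size factors, 12 with upper-quartile factors and 6 with library size. The plot of levels by gene shows these values for each library.

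**Figure D1:**
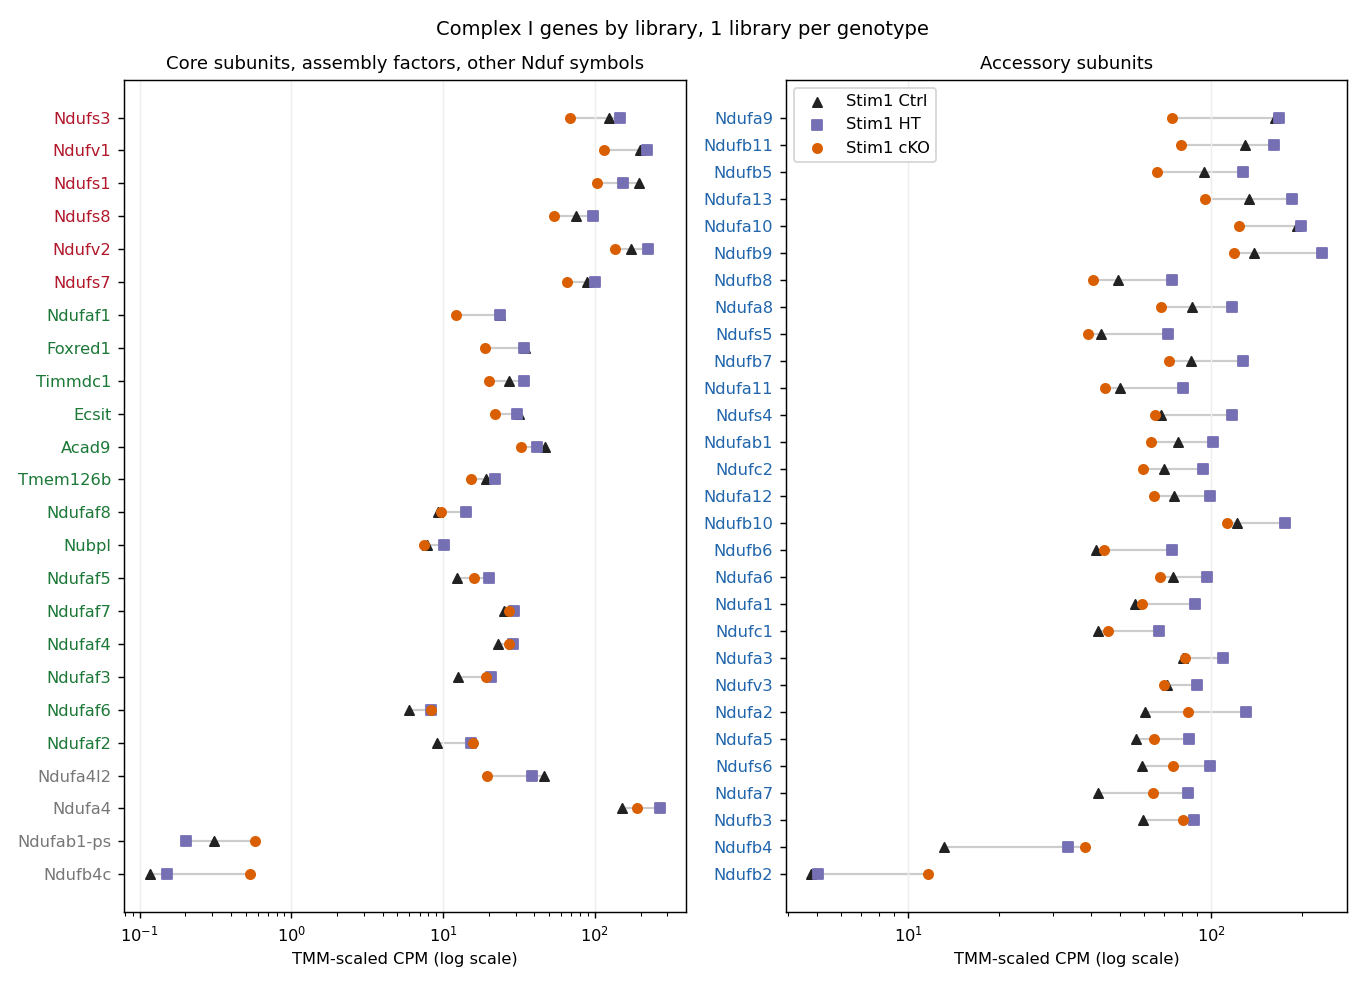
TMM-scaled CPM on a log axis for 53 of the genes tested, 1 row per gene, with a circle for Stim1 cKO, a square for Stim1 HT and a triangle for Stim1 Ctrl (1 library each) and a grey line from the lowest to the highest library. Gene names are red for core subunits, green for assembly factors, grey for other Nduf symbols and blue for accessory subunits. In the 6 core subunits shown the circle is furthest to the left, and in all 29 accessory subunits the square of Stim1 HT is to the right of the triangle of Stim1 Ctrl.

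These differences did not pass the test across all genes. The edgeR quasi-likelihood test compared Stim1 cKO with the 2 controls as 1 group and, with calls at an adjusted p under 0.01 and a fold change over 2, it called 0 of the 54 (0.0749% of all genes were called). The lowest adjusted p among them was 0.0619, for Ndufa4l2. Of the 14 genes that edgeR called, 0 were lower in Stim1 cKO. Stim1 itself, the targeted gene, was not called (edgeR adjusted p 0.106). The test could thus hardly call a set that is mostly lower, and the absence of calls says little about these genes. At an unadjusted p under 0.05, 8 of the 54 were lower in Stim1 cKO (14.8%, against 13.4% of all genes) and 1 was higher (18.5% of all genes). Over 1.5-fold below both controls were 9 of 54 (16.7%, against 17.5%). The share with large differences was thus near that of all genes, while the share below both controls was higher. DESeq2 called 1 of the 54, Ndufa9, in the lower direction (4.71% of all genes were called lower), with a log2 fold change of -1.15 at an adjusted p of 0.00294. The only spread that either test can use is that between Stim1 HT and Stim1 Ctrl, and an exact permutation of 3 libraries cannot give a p below 0.333.

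The core subunits follow the path of the electrons. Ndufv1 binds NADH and the flavin, and was at 115 CPM in Stim1 cKO, against 220 CPM (Stim1 HT) and 199 CPM (Stim1 Ctrl). Its log2 fold change was -0.87 ± 0.29 (SE), with an adjusted p of 0.121 in edgeR. Ndufv2, which holds an iron-sulphur cluster beside it, was at 135 CPM, 225 CPM and 172 CPM in the same order, with a log2 fold change of -0.56 ± 0.32. Stim1 cKO was thus the lowest library for the entry point of electrons, by a smaller ratio to Stim1 Ctrl in Ndufv2. Ndufs1, the largest subunit of the matrix arm and a carrier of several iron-sulphur clusters, was at 103 CPM in Stim1 cKO, against 152 CPM (Stim1 HT) and 197 CPM (Stim1 Ctrl). It was the only core subunit for which Stim1 HT lay below Stim1 Ctrl, and its log2 fold change was -0.76 ± 0.31.

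Further core subunits lead to ubiquinone. Ndufs8, which holds iron-sulphur clusters, was at 53.7 CPM in Stim1 cKO, against 96.6 CPM (Stim1 HT) and 75.6 CPM (Stim1 Ctrl). Ndufs7, which holds the last cluster of the chain, was at 65.6 CPM, 100.5 CPM and 89.1 CPM, and had the core log2 fold change nearest to 0, -0.53 ± 0.26. For both, Stim1 cKO was the lowest library and Stim1 HT the highest. Ndufs3 (chromosome 2, 90894634 to 90904827 on GRCm38), whose promoter is given above, had the lowest core log2 fold change. It was at 68.6 CPM in Stim1 cKO, against 147 CPM (Stim1 HT) and 124 CPM (Stim1 Ctrl), a log2 fold change of -0.98 ± 0.29 at an edgeR adjusted p of 0.0916. Ndufs3 and Ndufv1 were over 1.5-fold below both controls.

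The accessory subunits stood nearer to Stim1 Ctrl than the core did. Their median log2 ratio was -0.66 against Stim1 HT and -0.14 against Stim1 Ctrl, whereas the core medians were -0.85 and -0.79. Transcript length moved with the ratio to Stim1 Ctrl, with a Spearman's rho of -0.36 over 52 members (-0.07 over 16067 genes) against -0.00085 for the ratio to Stim1 HT, and accessory transcripts were shorter (a median of 704 bases) than core transcripts (1312 bases). The part of length in this contrast was not tested beyond the centring given below. Assembly factors had medians of -0.39 against Stim1 HT and 0.00 against Stim1 Ctrl. Summed over genes, core subunits were at 690 CPM in Stim1 cKO, against 1230 CPM (Stim1 HT) and 1133 CPM (Stim1 Ctrl), and accessory subunits at 1979 CPM, 3183 CPM and 2244 CPM. The summed accessory level per summed core level was therefore highest in Stim1 cKO, at 2.87, and was 2.59 in Stim1 HT and 1.98 in Stim1 Ctrl. With assembly factors the same ratio was 0.365, 0.271 and 0.255. With 1 library per genotype, none of these ratios has a replicate check. The comparisons with Stim1 HT and with Stim1 Ctrl share the Stim1 cKO library.

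**Figure D2:**
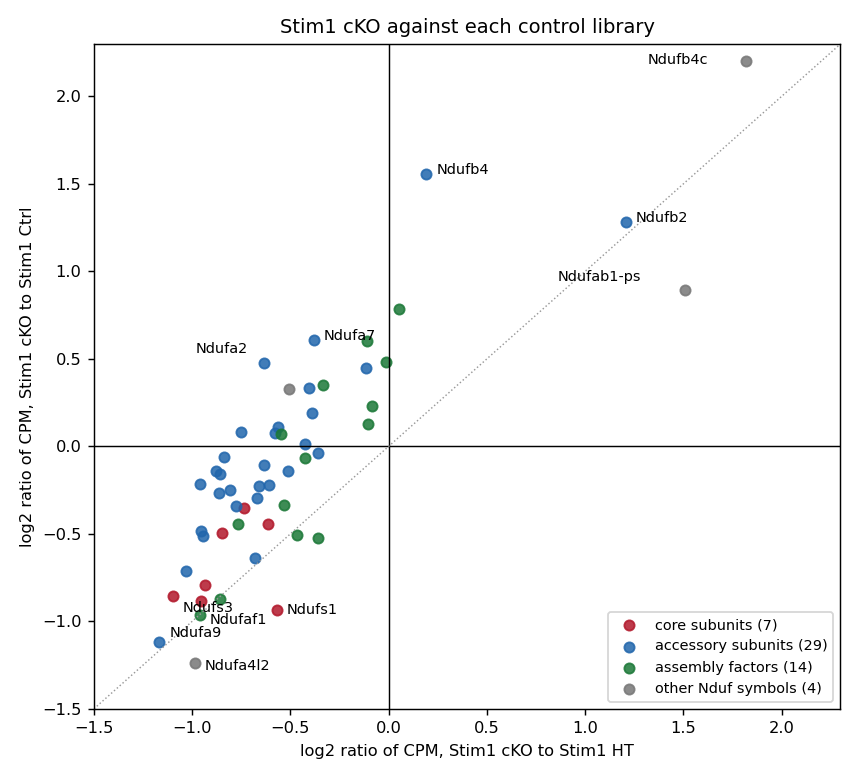
Log2 ratio of CPM of Stim1 cKO to Stim1 HT (x axis) and to Stim1 Ctrl (y axis), 1 point per gene tested and coloured by class. The dotted line marks equal ratios, and the axes share the Stim1 cKO library. All 7 core subunits lie in the lower left corner, below 0 on both axes, while the 29 accessory subunits extend upwards along the y axis, among them Ndufa2 and Ndufa7 at 0.48 and 0.61, to Ndufb2 and Ndufb4 at 1.28 and 1.55, the only accessory subunits above both controls.

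Among accessory subunits, those over 1.5-fold below both controls were Ndufa9, Ndufb11 and Ndufa10. Ndufa9 (chromosome 6, 126821721 to 126849136), a matrix arm subunit near the ubiquinone site that binds a nucleotide cofactor, was at 74.6 CPM in Stim1 cKO, against 167 CPM (Stim1 HT) and 162 CPM (Stim1 Ctrl). The controls nearly coincided and stood over 2-fold above Stim1 cKO, and the log2 fold change of -1.14 ± 0.28 had an adjusted p of 0.0661 in edgeR. Ndufb11, an X-linked membrane arm subunit, was at 79.3 CPM, 162 CPM and 130 CPM, with a log2 fold change of -0.88 ± 0.30 at an edgeR adjusted p of 0.123. Ndufa10, of the membrane arm, was at 124 CPM in Stim1 cKO, against 199 CPM (Stim1 HT) and 193 CPM (Stim1 Ctrl). By position in the complex, 12 of 16 matrix arm subunits, 7 core subunits included, and 12 of 19 membrane arm subunits were below both controls. The 9 accessory subunits of the matrix arm had a median difference of -0.20, against -0.50 for the membrane arm subunits and -0.75 for the core, with no test between them.

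Several accessory subunits were lower than Stim1 HT alone. Ndufs6, a matrix arm subunit that binds zinc, was at 74.7 CPM in Stim1 cKO, against 99.0 CPM (Stim1 HT) and 59.3 CPM (Stim1 Ctrl). Ndufa2, which has a thioredoxin-like fold, was at 84.2 CPM, 131 CPM and 60.5 CPM. For both, Stim1 cKO lay between its controls, as it did for 9 of the 29. Ndufs4, a matrix arm subunit whose loss is a known cause of mitochondrial disease, was at 65.4 CPM in Stim1 cKO, against 117 CPM (Stim1 HT) and 68.2 CPM (Stim1 Ctrl), so that only Stim1 HT stood apart.

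The other accessory subunits lay between these patterns, and 25 of the 29 had a negative log2 fold change. Ndufb5, of the membrane arm, was at 66.4 CPM in Stim1 cKO, against 128 CPM (Stim1 HT) and 94.8 CPM (Stim1 Ctrl). Ndufa13, also known as GRIM-19 for its role in interferon-induced cell death, was at 95.7 CPM, 186 CPM and 134 CPM. In both, Stim1 cKO was clearly lowest and the controls differed from each other. Ndufb9 was at 120 CPM, 232 CPM and 138 CPM, and Ndufb10 at 113 CPM, 175 CPM and 122 CPM, so that Stim1 cKO was near Stim1 Ctrl. Ndufab1, the mitochondrial acyl carrier protein that also serves lipoic acid synthesis, was at 63.5 CPM in Stim1 cKO, against 101 CPM (Stim1 HT) and 77.9 CPM (Stim1 Ctrl). Ndufa1, an X-linked membrane arm subunit, was at 59.0 CPM, 88.2 CPM and 55.9 CPM, which placed Stim1 cKO level with Stim1 Ctrl. Ndufa7 and Ndufb3 were the others with a log2 fold change above 0 (0.03 and 0.14), at 64.3 CPM and 80.9 CPM in Stim1 cKO, 83.7 CPM and 87.5 CPM in Stim1 HT, and 42.2 CPM and 59.4 CPM in Stim1 Ctrl. For Ndufs4 and Ndufv3, Stim1 cKO was below Stim1 Ctrl by less than the counting error.

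Ndufb4 and Ndufb2, both of the membrane arm, were above both controls. Ndufb4 was at 38.5 CPM in Stim1 cKO, against 33.7 CPM (Stim1 HT) and 13.1 CPM (Stim1 Ctrl), with Stim1 HT close to Stim1 cKO and a log2 fold change of 0.72 ± 0.55. Ndufb2 was at 11.6 CPM in Stim1 cKO, against 5.03 CPM (Stim1 HT) and 4.78 CPM (Stim1 Ctrl), a log2 fold change of 1.24 ± 0.42 at an edgeR adjusted p of 0.123. It had the lowest level per kilobase of the accessory subunits in each library. Exons of Ndufb2 overlap those of Gm42420 on the same strand and of Braf and Gm16272 on the other, and Ndufb4 has a copy among the genes listed, Ndufb4c, as Ndufab1 and Ndufs6 have in Ndufab1-ps and Ndufs6b, so these counts are uncertain. Whether counting used strand is not given in the sources used here, and 21 of the 55 genes share exon bases with another gene (4 on the same strand, 18 antisense), including Ndufs3, Ndufs1, Ndufa9 and Ndufb11.

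The assembly factors were split evenly, with 7 of 14 below both controls in Stim1 cKO, 6 between and 1 above. By symbol, 1 of 8 with an Ndufaf symbol and 6 of 6 without it were below both, against 42.1% of all genes. The median differences of these 2 sets were 0.04 and -0.45. Ndufaf1, Ecsit, Acad9 and Tmem126b belong to the mitochondrial complex I intermediate assembly complex (MCIA), which builds part of the membrane arm, and Timmdc1 works beside it. All 5 were below both controls under each scaling tried, with a median difference of -0.47. Ndufaf1 was at 12.2 CPM in Stim1 cKO, against 23.7 CPM (Stim1 HT) and 23.8 CPM (Stim1 Ctrl), with a log2 fold change of -0.96 ± 0.29 at an edgeR adjusted p of 0.0992. Its partner Ecsit was at 22.1 CPM, 30.6 CPM and 31.4 CPM, and Acad9, an acyl-CoA dehydrogenase of fatty acid oxidation that also serves in assembly, at 32.6 CPM, 41.7 CPM and 46.7 CPM. For these 3 the controls were close together and Stim1 cKO was below them. Timmdc1 was at 19.99 CPM, 34.1 CPM and 27.2 CPM, and Tmem126b at 15.2 CPM, 21.9 CPM and 19.1 CPM.

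Outside this group, 2 of the other 9 assembly factors were below both controls, and the median difference of the 9 was 0.01. This grouping was made after the values were seen and was not tested. A place below both controls was not particular to the MCIA group. In the separate list of other complex I assembly factors given below, 6 of 7 genes were below both. The 2 of the 9 were Foxred1 and Nubpl. Foxred1, a flavoprotein oxidoreductase, was at 19.0 CPM in Stim1 cKO, against 34.4 CPM (Stim1 HT) and 34.8 CPM (Stim1 Ctrl). Nubpl, which delivers iron-sulphur clusters, was at 7.52 CPM, 10.1 CPM and 7.89 CPM. Foxred1 had a log2 fold change of -0.87 ± 0.25 at an edgeR adjusted p of 0.0873, while Nubpl was below Stim1 Ctrl by less than the counting error. Ndufaf3 and Ndufaf4, partners in assembling the ubiquinone-binding part of the matrix arm, were at 19.1 CPM and 27.1 CPM in Stim1 cKO, 20.6 CPM and 28.8 CPM in Stim1 HT, and 12.6 CPM and 23.1 CPM in Stim1 Ctrl. Ndufaf2, a paralog of the subunit Ndufa12, was at 15.8 CPM in Stim1 cKO, against 15.2 CPM (Stim1 HT) and 9.17 CPM (Stim1 Ctrl). It was the only assembly factor above both, and was above Stim1 HT by less than the counting error. With upper-quartile factors it was joined by Ndufaf4 and Ndufaf6, and with library size also by Ndufaf3 and Ndufaf7. Ndufaf6 was at 8.30 CPM, 8.38 CPM and 5.95 CPM, so Stim1 cKO and Stim1 HT were level. Ndufaf5, which modifies Ndufs7, was at 15.9 CPM in Stim1 cKO, against 20.002 CPM (Stim1 HT) and 12.4 CPM (Stim1 Ctrl), and its partner Ndufaf8 at 9.71 CPM, 14.2 CPM and 9.25 CPM. Ndufaf7, a methyltransferase, was at 27.3 CPM, 29.4 CPM and 25.1 CPM, the most even of these factors.

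Ndufa4l2, the paralog of Ndufa4 that is known to be induced under low oxygen, was at 19.5 CPM in Stim1 cKO, against 38.7 CPM (Stim1 HT) and 46.1 CPM (Stim1 Ctrl). In edgeR it had a log2 fold change of -1.12 ± 0.26 (SE) and an adjusted p of 0.0619, and it was lowest in Stim1 cKO by about 2-fold against either control. Ndufa4 was at 190 CPM in Stim1 cKO, against 270 CPM (Stim1 HT) and 151 CPM (Stim1 Ctrl), with a log2 fold change of -0.15 ± 0.43 that turned to 0.093 with library size as the only scaling and to 0.31 without Stim1 HT. The level of Ndufa4l2 was 10.3% of that of Ndufa4 in Stim1 cKO, against 14.4% (Stim1 HT) and 30.6% (Stim1 Ctrl). The pseudogenes were near the limit of detection, with 14 (Stim1 cKO), 4 (Stim1 HT) and 8 (Stim1 Ctrl) counts of Ndufab1-ps and 13, 3 and 3 counts of Ndufb4c. A count of 3 equals 0.124 CPM, 0.152 CPM and 0.117 CPM in these libraries. Ndufs6b, with 9, 4 and 4 counts, did not enter the test.

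Stim1 HT and Stim1 Ctrl, which the test takes as 1 group, differed from each other in these genes. Stim1 HT was above Stim1 Ctrl for 47 of 54 genes (87.0%, against 50.3% of all genes), including 29 of 29 accessory subunits, 6 of 7 core subunits and 10 of 14 assembly factors. The median log2 ratio between these controls (Stim1 HT over Stim1 Ctrl) was 0.56 for accessory subunits, 0.17 for core subunits and 0.32 for assembly factors. Transcript length moved with this ratio. Accessory subunits had a median transcript length of 704 bases, core subunits of 1312 bases and assembly factors of 1623 bases. Among all genes, the median of this log2 ratio was 0.47 for transcripts under 1 kb, 0.19 from 1 to 2 kb, -0.05 from 2 to 4 kb and -0.26 above 4 kb. The members had 0.57 under 1 kb (28 genes), 0.35 from 1 to 2 kb (14 genes) and 0.14 from 2 to 4 kb (10 genes). Across genes, Spearman's rho of length with this ratio was -0.63 over 52 members and -0.43 over 16067 genes, as a description of genes that share the same pair of libraries. When ratios were centred on all genes of like length, the members' median of log2(CPM + 1) differences between Stim1 HT and Stim1 Ctrl was 0.13, against 0.40 without centring. Whether library preparation, RNA length or genotype lay behind this was not tested.

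**Figure D3:**
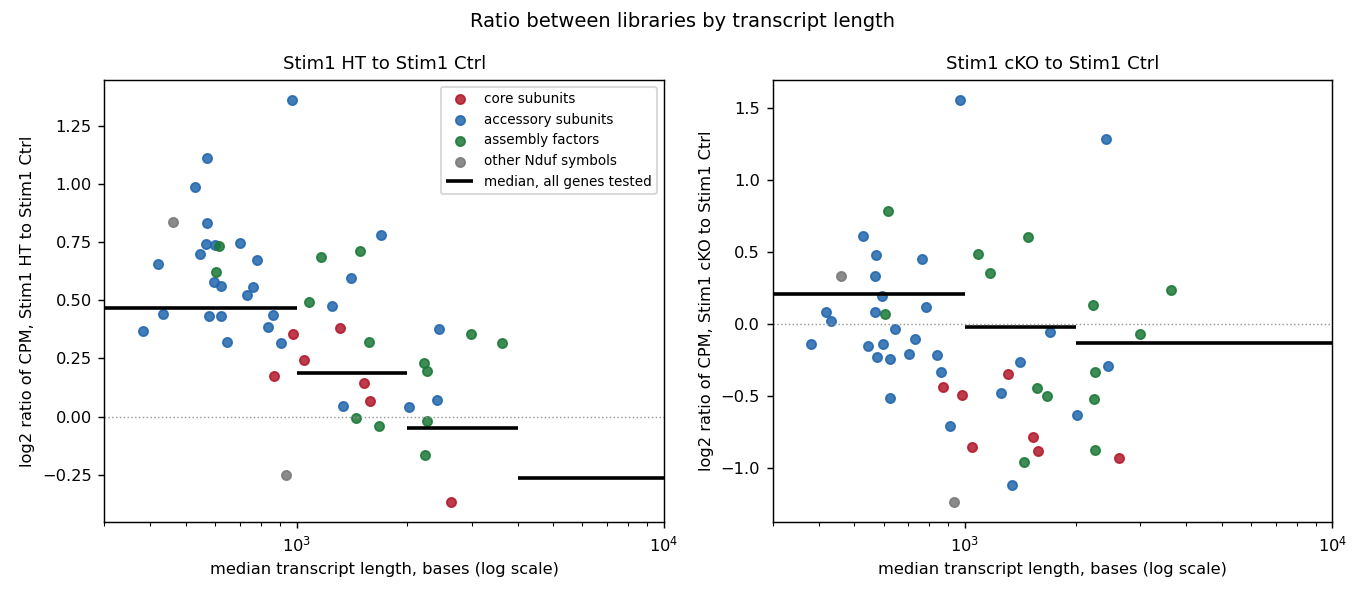
Log2 ratio of CPM of Stim1 HT to Stim1 Ctrl (left) and of Stim1 cKO to Stim1 Ctrl (right) against median transcript length in bases on a log axis, 1 point per gene coloured by class. Black bars are medians over all genes tested within each length class. The 52 members with a length are shown. On the left the bars step down from 0.47 to -0.26, and on the right the 7 core subunits lie below the bar of their length.

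The place of Stim1 cKO was set against length in the same way. In each length class a larger share of members than of all genes was below both controls, with 53.6% against 37.2% under 1 kb, 78.6% against 47.4% from 1 to 2 kb, and 70.0% against 48.9% from 2 to 4 kb. After centring by length, 38 of 52 members had both ratios of Stim1 cKO below the median of genes of like length, against 44.1% of all genes. Among them were 7 core subunits, 23 accessory subunits and 7 assembly factors. A member counted in this way need not be below both controls before centring. The core median was then -0.63 and the accessory median -0.35.

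The subunits of complex I made in the mitochondria stood the other way. Of the 7 mt-Nd genes, which encode the core of the membrane arm, 5 were above both controls in Stim1 cKO and none below. Of all genes, 43.6% were above both and 42.1% below. mt-Nd1 was at 6959 CPM in Stim1 cKO, against 3342 CPM (Stim1 HT) and 3652 CPM (Stim1 Ctrl), mt-Nd2 at 4253 CPM, 1717 CPM and 1989 CPM, and mt-Nd4 at 5018 CPM, 1978 CPM and 2000 CPM. The controls were close together for these 3, and Stim1 cKO was over 1.5-fold higher than either. mt-Nd6, the only one encoded on the other strand of mitochondrial DNA, was at 208 CPM, 58.2 CPM and 77.3 CPM, and mt-Nd3 at 20.4 CPM, 5.33 CPM and 4.20 CPM. mt-Nd5 was at 3516 CPM in Stim1 cKO, against 2494 CPM (Stim1 HT) and 3819 CPM (Stim1 Ctrl), and mt-Nd4l at 1.57 CPM, 0.914 CPM and 2.02 CPM, so Stim1 cKO lay between its controls. The edgeR test called none of the 7, with a lowest adjusted p of 0.0374, and 4 were higher at an unadjusted p under 0.05 (18.5% of all genes). DESeq2 called 4 of the 7 higher, mt-Nd2, mt-Nd3, mt-Nd4 and mt-Nd6 (5.92% of all genes were called higher). The summed mt-Nd level per summed nuclear core level was 28.9 for Stim1 cKO against 7.80 (Stim1 HT) and 10.2 (Stim1 Ctrl). The ratio was thus highest in Stim1 cKO, with no replicate to set it against.

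Nuclear genes of the other respiratory complexes were set beside those of complex I. Below both controls were 5 of 8 genes of complex II, 5 of 9 of complex III, 9 of 16 of complex IV, 11 of 19 of the ATP synthase and 6 of 7 other complex I assembly factors, beside 18 of 29 accessory subunits of complex I and 42.1% of all genes. The complex II list pools subunits with assembly factors, and its subunits Sdha, Sdhb, Sdhc and Sdhd were each below both. So were Uqcrc1, Uqcrc2, Uqcrfs1 and Cyc1 of complex III and Atp5a1, Atp5b and Atp5c1 of the ATP synthase. In these 2 complexes, 4 and 7 genes lay between the controls. The place of the complex I core subunits was thus not particular to complex I. The median difference was -0.57 for complex II, -0.41 for complex III, -0.40 for complex IV, -0.58 for the ATP synthase and -0.64 for the other assembly factors. edgeR called none of them, and of all genes it called none lower. At an unadjusted p under 0.05 the counts were 3, 4, 2, 7 and 2, all in the lower direction (13.4% of all genes), so that complex IV, at 12.5%, was near the share of all genes. DESeq2 called 2 genes of complex II, 4 of complex III, 1 of complex IV, 5 of the ATP synthase and 0 of the other assembly factors lower (4.71% of all genes). The shares below both controls were 55.6% for complex III and 56.3% for complex IV, and no difference between complexes, or from all genes, was tested. In complex II, the lowest log2 fold changes were those of the membrane anchor Sdhd (-1.28) and the catalytic subunit Sdha (-1.02), and the highest those of the assembly factors Sdhaf4 (0.27) and Sdhaf3 (0.02). In complex III they were those of Cyc1 (-1.22) and Uqcrc2 (-1.10) against the small subunits Uqcrq (-0.15) and Uqcr10 (-0.25). In complex IV, the muscle isoforms Cox6a2 (-1.15) and Cox8b (-1.01) were lowest, and Cox6b2 (0.58) and Cox6a1 (0.25) highest. In the ATP synthase, Atp5b (-1.42) and Atp5a1 (-1.27) were lowest and Atp5s (0.24) and Usmg5 (0.19) highest. Among the other complex I assembly factors, Tmem70 (-0.80) and Lyrm2 (-0.78) were lowest and Sfxn4 (0.27) and Dnajc30 (-0.40) highest. The skeletal muscle markers, which include Cox6a2, moved in the same direction, with 17 of 19 below both controls. So did the connective tissue, erythroid and proliferation markers, with 6 of 6, 6 of 7 and 10 of 10 below both. The part of any of these in the values above was not tested. With the skeletal muscle markers left out before scaling, the core median remained at -0.75, which changes the scaling and not the makeup of the tissue.

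**Figure D4:**
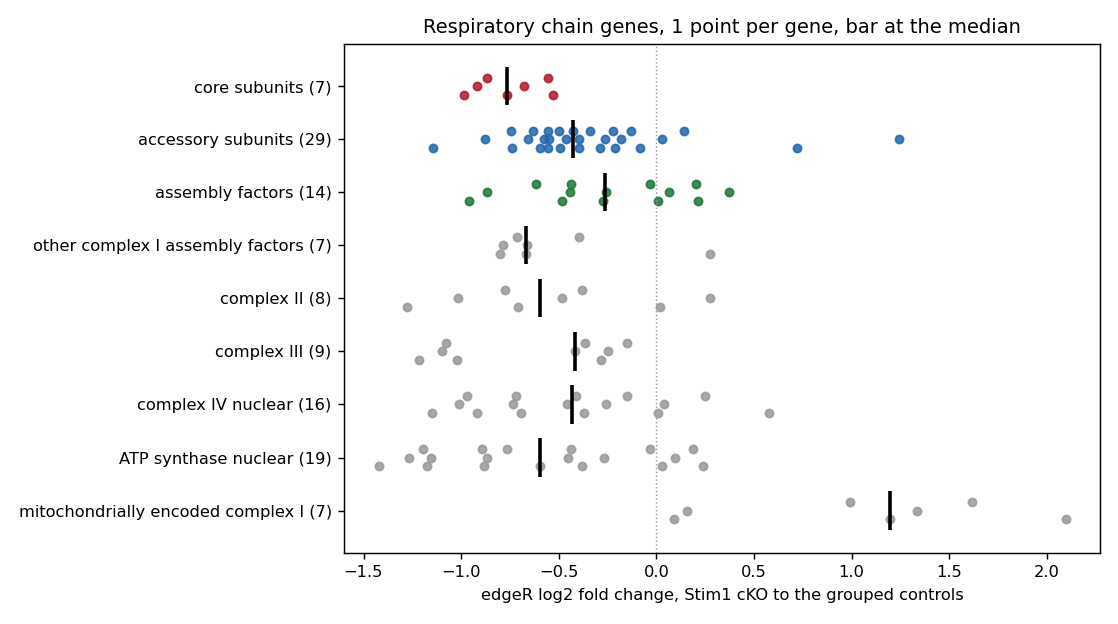
edgeR log2 fold change of Stim1 cKO to the grouped controls (x axis), 1 point per gene and a black bar at the median, for the 3 classes of nuclear complex I genes (coloured) and for other respiratory chain lists (grey), with the number of genes tested in brackets. The points of the 7 core subunits lie between -0.98 and -0.53, and those of the mitochondrially encoded genes between 0.09 and 2.10.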

How the data were processed

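The 3 RNA libraries of mouse incisor enamel organ comprised 1 per genotype. The authors trimmed paired-end reads, aligned them with STAR and deposited raw counts per gene symbol. The aligner version, genome build, annotation, counting tool and strand setting are not given in the sources used here. The methods name a directional poly-A kit and the labels a SMARTER kit. The members, lists and tests were chosen with earlier results of these data known. Groups came from the deposited labels. Stim1 cKO was tested against Stim1 HT and Stim1 Ctrl together, as in the study, with edgeR 4.0.16 in R 4.3.3 (TMM, filterByExpr, quasi-likelihood test, Benjamini-Hochberg adjustment over 18702 genes, common dispersion 0.106, 1 residual degree of freedom). DESeq2 1.42.0 was an alternative and gave no adjusted p for 2 members (Ndufab1-ps and Ndufb4c). Both were run on simulated data in which the controls did not differ, unlike these libraries. Only the edgeR log2 fold changes had to meet a limit there, and the calls did not. Class medians used log2(CPM + 1). Transcript lengths, positions and overlaps were from GENCODE M21 on GRCm38, and promoters from RefSeq. Named were core subunits, the 6 members with the lowest and the 6 with the highest log2 fold change, members that broke from their class, the pair Ndufa4 and Ndufa4l2, the mt-Nd genes, and the 2 lowest and 2 highest genes of each other list. Other members were named as examples. The values of 1 member are not reported here. With no replicate, p-values rest on the difference between the controls. Counting intervals and the limit of 3 counts cover counting error only.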

Additional observations from a re-analysis of the deposited data

How the results depend on the processing

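No paired analysis was possible because each genotype had 1 library. No member was called by edgeR under the other filters, thresholds and scalings tried, and DESeq2 called 1, Ndufa9 (log2 fold change -1.15). Over all genes, 14 were called, against 1987 with DESeq2, 907 with no filter, 6 with a mean of at least 50 counts, 1811 at an adjusted p under 0.05, 50 with RLE, 138 with upper-quartile factors and 6 with library size. Of these, 0 were lower in Stim1 cKO in the main fit, with a mean of at least 50 counts, with RLE or with library size. Those lower were 880 with DESeq2, 220 with no filter, 539 at an adjusted p under 0.05 and 13 with upper-quartile factors. The core median of -0.75 was -0.62 with upper-quartile factors, -0.49 with library size, -0.63 centred by transcript length (added after the values were seen), and -0.83 to -0.80 without either control library. The median of all genes moved to 0.11 and 0.22 with the first 2 of these scalings. With library size, the assembly factor median was 0.010, 20 members were below both controls and 3 were over 1.5-fold below both. Without Stim1 HT, the accessory median was -0.15 and that of assembly factors -0.01. Without Stim1 Ctrl, they were -0.65 and -0.37. The median of Stim1 HT to Stim1 Ctrl was 0.13 centred by length. Of 196 values tried for 18 named members, 193 kept their direction, and the exceptions were Ndufa4 with library size (0.093) and without Stim1 HT, and Ndufaf6 without Stim1 Ctrl. Many of the 18 were chosen for the lowest or highest log2 fold change in the same data, and several settings hardly changed the fit. A kept direction was therefore likely from the start and is no independent check. Without either control library, Ndufa4 ranged from -0.51 to 0.31 and Ndufaf6 from -0.013 to 0.47. The cause of these shifts was not tested.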
